A study of Mus musculus with 8 samples.

Results

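Imprinted genes are expressed mainly from the allele inherited from 1 parent. The 38 genes described here were chosen by name, as imprinted genes of the mouse outside the Dlk1-Dio3 cluster, out of 27827 gene names on the array, and every probe whose gene name equalled one of them was taken. All 38 were found, with 78 probes of 41174. Tissue came from mouse embryos at E9.5 and was posterior second heart field (pSHF), a mesenchyme dorsal to the heart from which the atrial septum is built. Heterozygous embryos carrying 1 mutated copy of Tbx5 (Tbx5-/+ in the labels, Tbx5+/- below), a T-box transcription factor needed for septation, were compared with wild-type embryos. Each group had 4 arrays with Cy3-labelled cRNA from 1 pool of RNA each, and how many embryos made up a pool is not in the labels. The Tbx5+/- mice were kept on a mixed background, the dissected tissue kept its attached foregut, and no Cre or transgene entered the comparison. The sample titles number both groups as embryo 1, 5, 6 and 7, called pool numbers below. Numbers 1 and 5 are on array label 1 and numbers 6 and 7 on array label 2. What a shared number stands for is not said.

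In an imprinted cluster, DNA methylation set in the egg or the sperm marks a control region, and the mark decides which parental copy of the neighbouring genes stays active. Many genes active from the paternal copy favour growth of the fetus, and many active from the maternal copy restrain it. Mesoderm of the midgestation embryo is among the tissues where several of these genes are most strongly expressed. An array probe reads both parental copies together, so allelic expression and methylation were not measured here, and the labels do not say through which parent the Tbx5 mutation came. In pooled tissue, fewer cells of a type and less RNA per cell cannot be told apart.

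Levels are normalized log2 intensities, and a difference is the Tbx5+/- mean minus the wild-type mean on that scale. The labels do not say whether pools shared litters, so p-values measure the spread between these pools. A Tbx5 probe (A_52_P523712) read 9.01, 9.73, 9.16 and 8.62 in Tbx5+/- numbers 1, 5, 6 and 7 and 11.47, 11.56, 10.42 and 11.54 in wild-type, with no overlap (difference -2.12 ± 0.32 (SE), limma, adjusted p = 0.0917). A second Tbx5 probe differed by -0.15. Spots well above background made up 45.0% to 52.8% of the array in Tbx5+/- and 50.9% to 63.6% in wild-type. Tbx5+/- 1 stood apart from the other Tbx5+/- arrays. The summed level of 14 pSHF markers was 15.41 in Tbx5+/- 1, 16.90 to 17.43 in the other Tbx5+/- arrays and 16.32 to 16.87 in wild-type, a sum that the brightest markers carry. Of these 14 markers, which include Tbx5 itself, 9 had a difference below 0, and 6 were lower and none higher at an unadjusted p under 0.05. In 4 (Tbx5, Foxf1a, Gata4 and Gata6) the groups did not overlap. Over all probes 65.4% were below 0, 18.6% were lower and 3.34% higher at that threshold, and 9.01% lay lower without overlap. Gata4 read 5.86 and 6.28 in Tbx5+/- 6 and 7, where a Slc22a18 probe at 6.49 and 6.58 was not above background. Gata4 may thus have been tested only through wild-type, where it was brighter. The summed level of 9 primitive erythrocyte markers was lower on both arrays of number 1 (16.74 in Tbx5+/- and 16.76 in wild-type) than on any of the others (18.18 to 19.53). The 9 neural tube markers spread over 11.39 to 14.75 in wild-type and 12.56 to 14.16 in Tbx5+/-, and the trophoblast genes Gcm1, Tpbpa and Eomes were not above background on any array. Of 12 endothelial markers 8 were below 0, among them Kdr (-1.12) and Eng (-0.93), and those above 0 included Cd34 (0.22) and Emcn (0.21). At an unadjusted p under 0.05, 5 were lower (18.6% of all probes) and none higher, with 4 not overlapping (9.01% of all probes). Summed levels were 15.48 to 16.03 in Tbx5+/- and 15.79 to 16.08 in wild-type. All 7 tested markers of liver bud and yolk sac endoderm were below 0 (65.4% of all probes), with a median of -0.93 (Trf -1.81). Their sums were 12.78 to 17.14 in Tbx5+/- and 14.26 to 17.04 in wild-type. Between the most upstream and most downstream probes of a gene, the median gap over 4409 gene names was wider in Tbx5+/- 5, 6 and 7 (-1.81, -1.94 and -1.85) than in Tbx5+/- 1 (-1.44) and in wild-type (-1.57 to -1.41). The part of these markers and of this gap in the differences below was not tested.

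**Figure D1:**
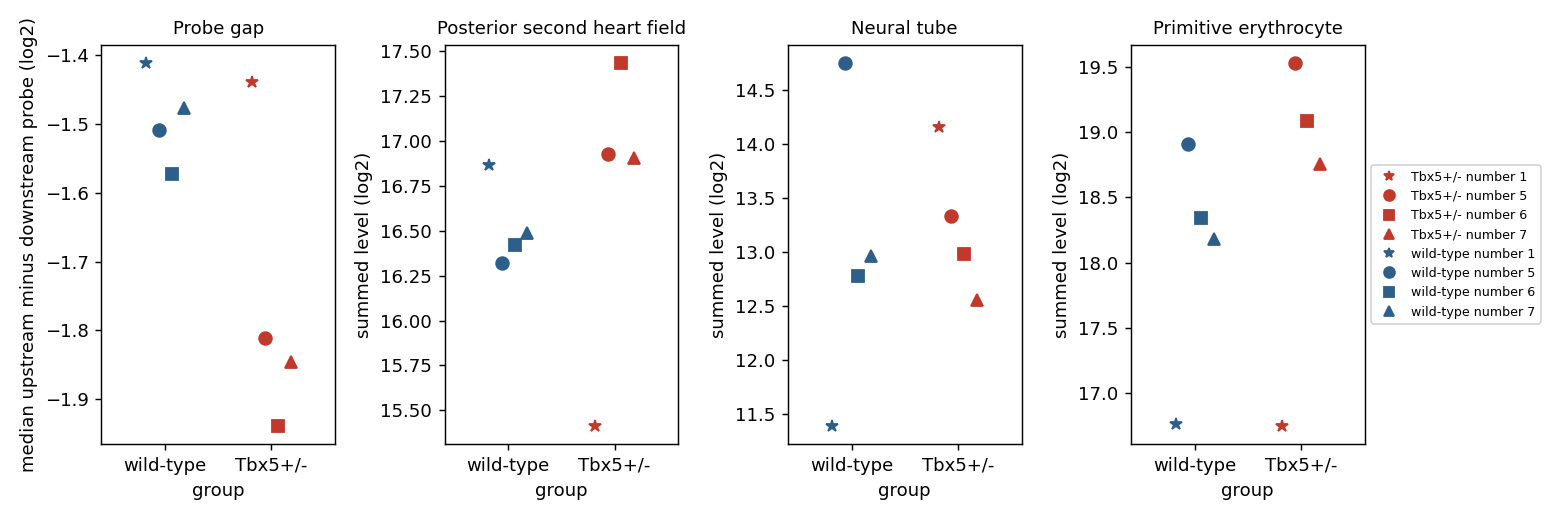
Per-array values in wild-type (blue) and Tbx5+/- (red), each symbol 1 array of the number in the legend: the median upstream minus downstream probe gap and the summed log2 levels of pSHF, neural tube and primitive erythrocyte markers. Tbx5+/- 5, 6 and 7 sit between -1.94 and -1.81 in the probe gap and every other array between -1.57 and -1.41, and both arrays of number 1 are lowest in erythrocyte markers.

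Sequences near 3 imprinted genes that read lower in Tbx5+/- are shown with their CpG dinucleotides, the sites that imprinting marks by methylation, in capitals. Promoter windows of 300 bases around a gene start (RefSeq, GRCm38.p6) were matched for 31 of the 38 genes. Peg3 and Usp29 are both expressed from the paternal allele and start back to back from a shared control region. The 96 bases between the outer ends of their RefSeq gene records, which cover all their annotated transcripts (chr7:6730463-6730558, plus strand) hold 3 CpG. Plagl1 lies downstream of a stretch with 19 CpG in 250 bases (chr10:13090582-13090831, plus strand), and the 250 bases before Ndn (chr7:62348027-62348276, plus strand) hold 5.
Peg3-Usp29: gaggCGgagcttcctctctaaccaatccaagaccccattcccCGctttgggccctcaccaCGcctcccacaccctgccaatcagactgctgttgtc
Plagl1: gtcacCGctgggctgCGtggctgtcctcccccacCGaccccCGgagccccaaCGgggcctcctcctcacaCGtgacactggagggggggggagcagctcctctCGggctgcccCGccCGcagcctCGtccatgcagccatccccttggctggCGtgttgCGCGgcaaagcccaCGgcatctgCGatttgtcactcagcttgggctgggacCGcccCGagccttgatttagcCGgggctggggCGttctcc
Ndn: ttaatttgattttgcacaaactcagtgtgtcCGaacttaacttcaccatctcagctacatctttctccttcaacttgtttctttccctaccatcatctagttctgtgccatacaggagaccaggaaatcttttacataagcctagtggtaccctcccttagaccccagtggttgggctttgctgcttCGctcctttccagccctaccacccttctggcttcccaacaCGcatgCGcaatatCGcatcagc

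The median window of these genes held 13 CpG, against 7 over 32851 windows of 27025 genes. The letters AGGTGTG, a T-box motif, were searched on both strands without any other motif. They stood in 2 of 49 windows (4.08%), of Snrpn and Ascl2, and in 5.84% of all windows.

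The first question was how many of these genes differed between Tbx5+/- and wild-type pSHF. Each gene was represented by its brightest tested probe, and probes entered the test if the 4 arrays of 1 group or of both all read them as well above background. This left 51 probes of 32 genes, with mean levels from 6.46 to 16.57. The remaining 6 members had no probe that passed, and a gene bright in 1 group only would have entered through that group. None passed an adjusted p of 0.05 with limma (0 of 32, as for 0 of all 20028 probes tested, 0%). With the pool numbers as a block, which pairs same-numbered arrays, 3 members were called, all lower, as were 10.8% of probes (0.379% higher). At an unadjusted p under 0.05 there were 7, all lower in Tbx5+/-: H19, Cdkn1c, Grb10, Peg3, Plagl1, Ndn and Ube3a. Over all probes, 18.6% were lower and 3.34% higher at that threshold, so 7 of 32 lay near the background. In 4 of them (H19, Cdkn1c, Grb10 and Peg3) the highest Tbx5+/- array was below the lowest wild-type one, as for 9.01% of probes, and no gene lay wholly above (0.744% of probes). The median difference was -0.26 and 22 of 32 were below 0, against a median of -0.19 and 65.4% of all probes. Each of the 7 was lower within both array labels, by differences from -1.52 to -0.37 on label 1 and from -3.18 to -0.73 on label 2. The 7 were picked for being lower on these same arrays, so this adds no support. Scaling each array to its 75th percentile, in place of variance stabilization, moved the median of all probes to 0.0996 and that of the members to 0.0599, with 13 of 32 below 0 and with 3 lower and 4 higher at an unadjusted p under 0.05. Signs of small differences below hold relative to that shift.

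Genes of both parental alleles were among those lower. Of 18 genes expressed from the maternal allele 15 were tested, with 4 lower at an unadjusted p under 0.05 and a median of -0.24. Of 18 expressed from the paternal allele 15 were tested too, with 3 lower and a median of -0.27. Over all probes 18.6% were lower at that threshold, and the median was -0.19. Below that median lay 8 of the 15 maternal and 9 of the 15 paternal genes. Gnas and Ddc, whose expressed allele depends on transcript or tissue, had a median of -0.08. The 24 tested genes imprinted across the body had a median of -0.32, and the 8 imprinted in few tissues one of -0.10.

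**Figure D2:**
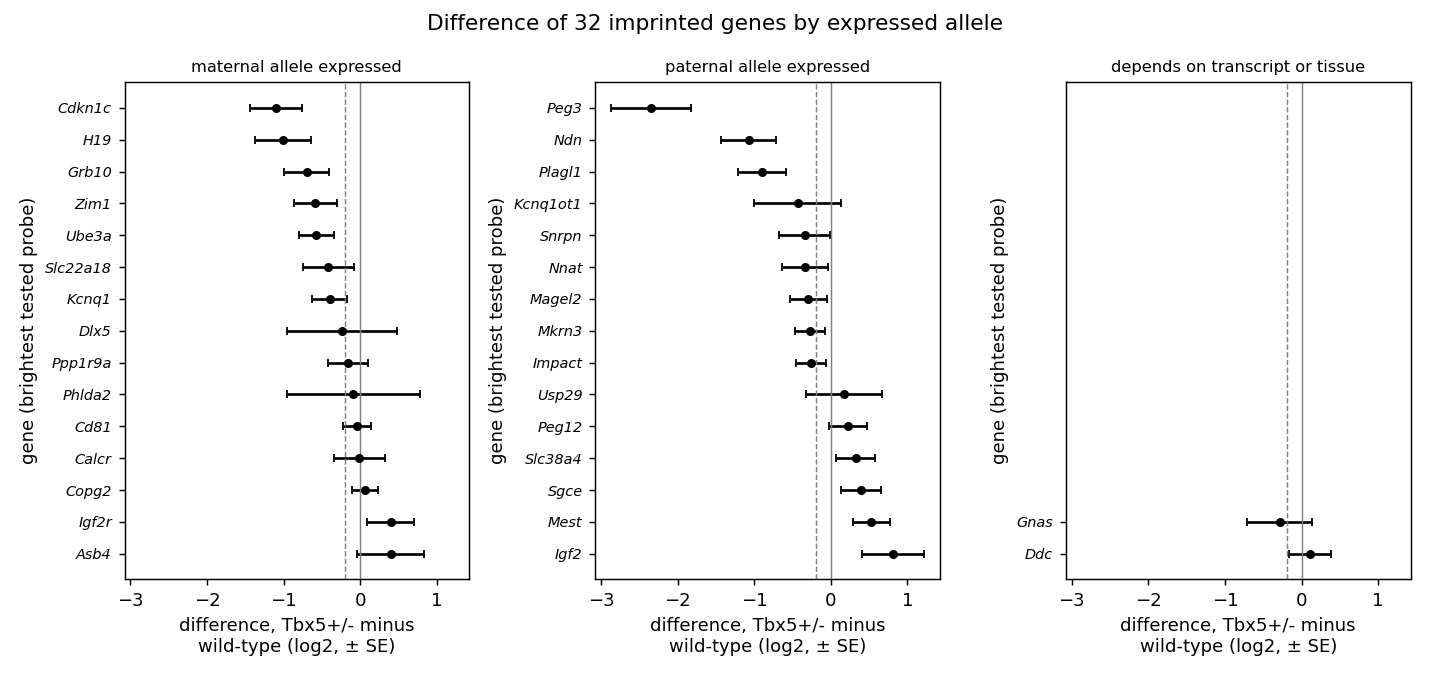
Difference between Tbx5+/- and wild-type (log2, x axis, bars ± SE from limma over 4 against 4 arrays) for the 32 tested genes, by expressed allele; the solid line is 0 and the dashed line the median of all probes, -0.19. Peg3 lies farthest below at -2.35 and Igf2 farthest above at 0.81, and both are expressed from the paternal allele.

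H19 and Igf2 are neighbours that share enhancers. H19 makes a noncoding RNA from the maternal allele, and Igf2 makes insulin-like growth factor II from the paternal one. H19 (probe at mm9 chr7:149761769-149761828, minus strand) read 15.46, 15.29, 13.66 and 14.796 in Tbx5+/- 1, 5, 6 and 7 and 16.14, 15.66, 15.60 and 15.81 in wild-type. Every Tbx5+/- value was below every wild-type value, lowest in number 6. The difference was -1.003 ± 0.37 (SE; limma, adjusted p = 0.194; exact permutation p = 0.0286, the smallest the 70 assignments can give), a 2.004-fold lower level, and -0.62 without Tbx5+/- 6. The second probe gave -1.14 ± 0.40. With the pool numbers as a block in limma the second probe passed (adjusted p = 0.0432) and the brightest did not (adjusted p = 0.0505).

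Igf2 (chr7:149836673-149836709, minus strand) read 15.47, 16.54, 17.36 and 16.84 in Tbx5+/- and 16.15, 15.23, 16.26 and 15.32 in wild-type. Tbx5+/- 5, 6 and 7 were above all wild-type arrays, and Tbx5+/- 1 lay among the wild-type values. The difference was 0.81 ± 0.41 (SE; limma, adjusted p = 0.258; exact permutation p = 0.143), with 0.41 ± 0.36 for a second probe. Igf2r, the receptor that clears insulin-like growth factor II and is expressed from the maternal allele, was likewise above all wild-type arrays in Tbx5+/- 5, 6 and 7, and in Tbx5+/- 1 below them. It read 14.96, 15.64, 16.52 and 15.86 in Tbx5+/- and 15.34, 15.23, 15.56 and 15.27 in wild-type (difference 0.40 ± 0.30, limma, adjusted p = 0.425). On leaving out 1 array the Igf2r difference ran from 0.14 to 0.66.

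The level of H19 minus that of Igf2 was -0.01, -1.24, -3.70 and -2.05 in Tbx5+/- 1, 5, 6 and 7 and 0.00, 0.43, -0.66 and 0.49 in wild-type. It is a difference between 2 probes, so only its change between groups can be read. The groups differed by -1.81 (exact two-sided permutation p = 0.0571). Within numbers the change was -0.01, -1.67, -3.04 and -2.53 (exact sign-flip test of the pairs, p = 0.125, the smallest 4 pairs can give). Without Tbx5+/- 1 it was -2.39 (exact permutation p = 0.0286, the smallest 3 against 4 arrays can give), and without Tbx5+/- 6 it was -1.16.

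**Figure D3:**
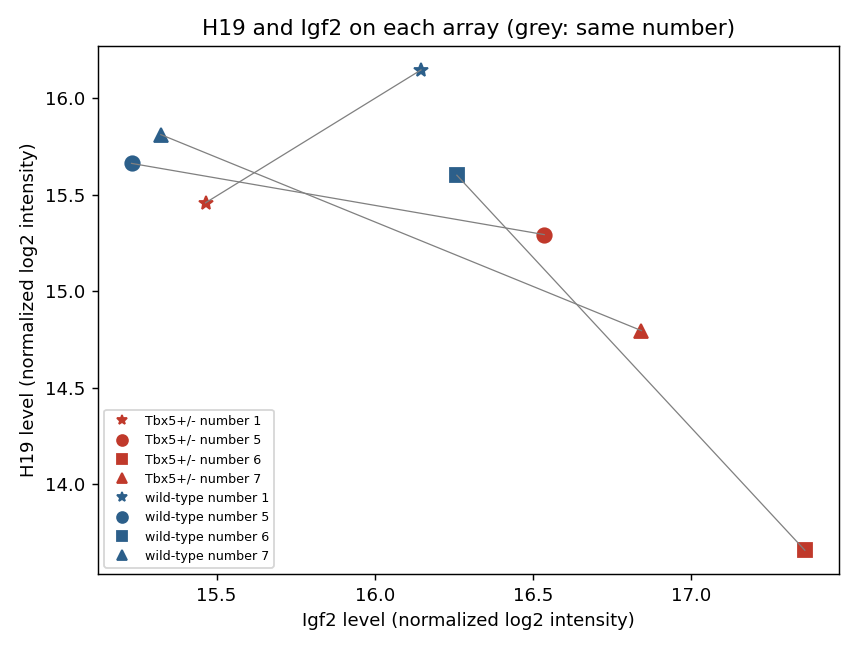
Normalized log2 level of Igf2 (x axis) and H19 (y axis) on each array, Tbx5+/- in red and wild-type in blue, with grey lines joining arrays of the same number. From wild-type to Tbx5+/-, numbers 5, 6 and 7 go toward higher Igf2 and lower H19, and number 1 toward lower levels of both.

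The Kcnq1 cluster holds growth-restraining genes of the maternal allele and Kcnq1ot1, a long noncoding RNA of the paternal allele that silences them. All 6 tested genes of the cluster had a difference below 0 (65.4% of all probes), and 4 of them lay below the median of all probes. Phlda2 and Cd81 turned positive under percentile scaling, and Ascl2, a placental transcription factor, was not tested. Cdkn1c, an inhibitor of cyclin-dependent kinases (chr7:150644753-150644812, minus strand), read 14.65, 14.88, 13.34 and 14.29 in Tbx5+/- and 15.02, 15.72, 15.16 and 15.65 in wild-type. Its groups did not overlap, with number 6 again lowest. The difference was -1.10 ± 0.34 (SE; limma, adjusted p = 0.152; exact permutation p = 0.0286), a 2.14-fold lower level. With the pool numbers as a block it passed the test (adjusted p = 0.0400).

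Kcnq1ot1 read 8.96, 10.76, 11.29 and 10.98 in Tbx5+/- and 9.61, 10.97, 11.52 and 11.61 in wild-type. Number 1 was lowest in both groups, and Tbx5+/- was below wild-type within every number. The difference of -0.43 ± 0.57 turned to 0.08 without Tbx5+/- 1, and was -0.36 without both arrays of number 1. Phlda2, which restrains growth of the placenta, read 10.15, 9.22, 8.49 and 8.01 in Tbx5+/- and 12.001, 7.80, 8.31 and 8.10 in wild-type. Its high value in wild-type 1 set its sign, as the difference of -0.09 ± 0.87 became 0.90 without that array. The potassium channel gene Kcnq1 differed by -0.40, the transporter gene Slc22a18 by -0.41 and the tetraspanin gene Cd81 by -0.04.

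Peg3, a zinc finger gene of the paternal allele, had the largest difference of the 32 brightest probes. It read 11.86, 10.73, 8.95 and 10.13 in Tbx5+/- and 12.80, 12.82, 12.20 and 13.24 in wild-type (chr7:6660440-6660499, minus strand). No Tbx5+/- array reached the lowest wild-type array, and Tbx5+/- 1 came nearest. The difference was -2.35 ± 0.52 (SE; limma, adjusted p = 0.0955; exact permutation p = 0.0286), 5.09-fold lower, and it passed with the block (adjusted p = 0.0334) and without Tbx5+/- 1 (-2.83, adjusted p = 0.00773). A second probe nearer the end of the gene read 9.21, 9.99, 8.51 and 9.55 against 10.30, 9.84, 10.19 and 10.38. There the groups overlapped, and the difference was -0.86 ± 0.30.

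Usp29, which faces Peg3 across the stretch printed above, gave opposite signs from its probes. The brightest one read 6.88, 9.23, 9.41 and 9.06 in Tbx5+/- and 8.23, 8.47, 8.82 and 8.38 in wild-type (0.17 ± 0.50). Tbx5+/- 1 was below all wild-type arrays and the other Tbx5+/- arrays above them. The probe near the start of the gene (chr7:6683435-6683494, plus strand) read 8.17, 7.82, 7.98 and 7.44 against 9.08, 9.14, 8.98 and 9.83. All Tbx5+/- values were lower there (-1.41 ± 0.25, limma, adjusted p = 0.0917; 0.0344 with the block). Zim1, a zinc finger gene of the maternal allele beside Peg3, differed by -0.58 and was above background on 2 of 4 Tbx5+/- arrays.

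Grb10 encodes an adaptor that restrains insulin and growth factor receptors and is expressed from the maternal allele in mesoderm. It read 15.67, 15.43, 14.25 and 15.24 in Tbx5+/- and 15.88, 15.96, 15.69 and 15.86 in wild-type (chr11:11830965-11831024, minus strand). The groups did not overlap, though Tbx5+/- 1 was just below the lowest wild-type array. The difference was -0.70 ± 0.29 (SE; limma, adjusted p = 0.216; exact permutation p = 0.0286), and -0.40 without Tbx5+/- 6. The other tested probes gave -1.30 and -1.67, the latter above background on 3 of 4 Tbx5+/- arrays. Its neighbour Ddc, for the enzyme that makes dopamine and serotonin, differed by 0.12.

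Plagl1, a zinc finger gene of the paternal allele known to act on other imprinted genes, read 12.78, 13.64, 13.24 and 14.25 in Tbx5+/- and 14.24, 14.11, 14.77 and 14.38 in wild-type. The groups overlapped by 1 Tbx5+/- array, number 7. The difference was -0.90 ± 0.31 (SE; limma, adjusted p = 0.182; exact permutation p = 0.0857). A second probe did not overlap (-1.27 ± 0.27) and passed with the block (adjusted p = 0.0372).

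**Figure D4:**
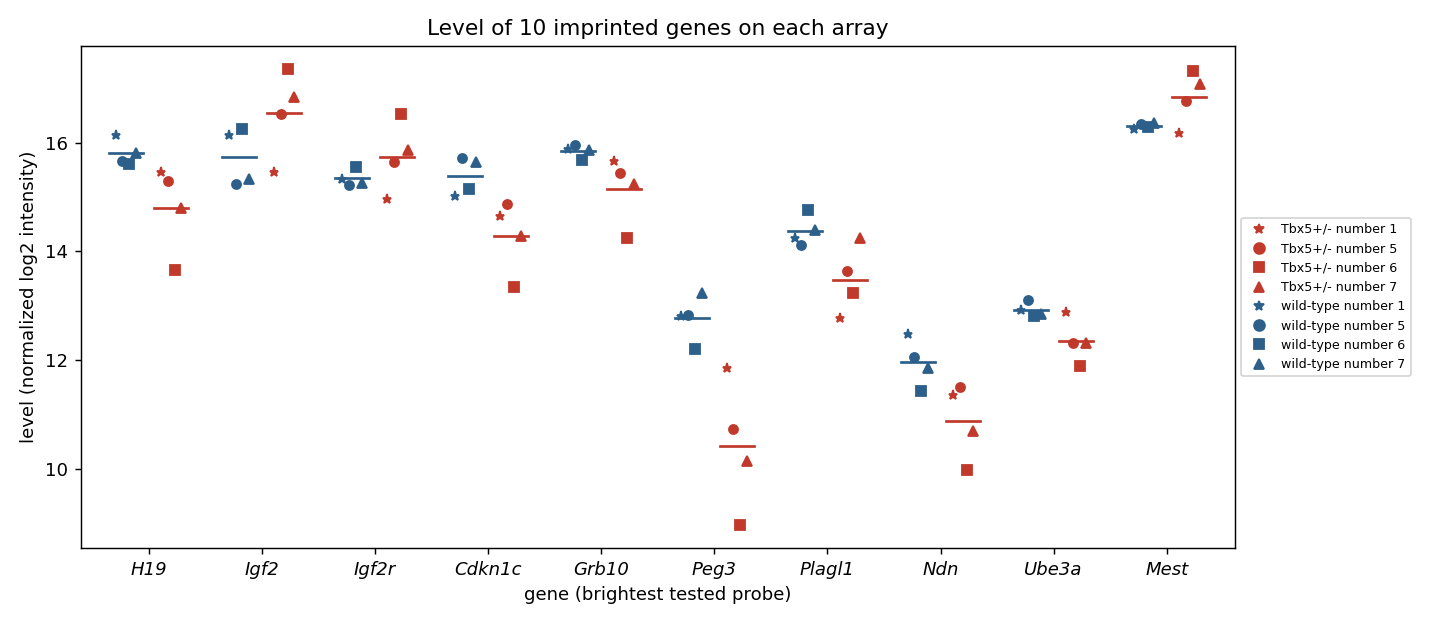
Normalized log2 levels (y axis) of the brightest tested probe of 10 genes on each array, wild-type in blue and Tbx5+/- in red, with a bar at each group's mean over 4 arrays. Tbx5+/- 6 is the lowest array for H19, Cdkn1c, Grb10, Peg3, Ndn and Ube3a and the highest for Igf2, Igf2r and Mest; levels of different genes come from different probes and are not comparable.

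The Prader-Willi region holds genes of the paternal allele and Ube3a, a ubiquitin ligase gene that is expressed from the maternal allele in neurons only. Of its 6 genes 5 were below 0 (65.4% of all probes), of which Magel2 and Mkrn3 turned positive under percentile scaling. Ndn, encoding the MAGE protein necdin, read 11.36, 11.50, 9.97 and 10.69 in Tbx5+/- and 12.48, 12.06, 11.43 and 11.85 in wild-type (chr7:69493847-69493906, plus strand). Tbx5+/- 5 was above wild-type 6, and within each number Tbx5+/- was lower. The difference was -1.07 ± 0.36 (SE; limma, adjusted p = 0.174; exact permutation p = 0.0571), and with the block it passed (adjusted p = 0.0340).

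Ube3a read 12.89, 12.31, 11.89 and 12.31 in Tbx5+/- and 12.92, 13.09, 12.82 and 12.85 in wild-type. Tbx5+/- 1 lay within the wild-type range and the other Tbx5+/- arrays below it. The difference was -0.57 ± 0.23 (SE; limma, adjusted p = 0.208; exact permutation p = 0.0857), with -0.74 and -0.13 for its other probes. Magel2 (-0.29), Mkrn3 (-0.27) and the splicing factor gene Snrpn (-0.34) were lower by less, and Peg12 was higher by 0.23. None of these 4 reached an unadjusted p under 0.05.

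Mest, a hydrolase-like gene of the paternal allele, read 16.19, 16.77, 17.31 and 17.07 in Tbx5+/- and 16.25, 16.33, 16.28 and 16.36 in wild-type (chr6:30698279-30698338, plus strand). Tbx5+/- 5, 6 and 7 were above all wild-type arrays and Tbx5+/- 1 was below them. The difference was 0.53 ± 0.25 (limma, adjusted p = 0.237), and 0.75 without Tbx5+/- 1 (adjusted p = 0.0277). Copg2, which overlaps the end of Mest on the other strand and encodes a coat protein subunit, differed by 0.06.

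In the Peg10 cluster of chromosome 6, Asb4, a gene of the maternal allele for a ubiquitin ligase adaptor of vessels and other tissues, gave the widest disagreement between probes. Its brightest probe (chr6:5382886-5382945, plus strand) read 13.30, 15.09, 15.62 and 14.99 in Tbx5+/- and 14.60, 14.04, 14.54 and 14.23 in wild-type. Tbx5+/- 1 was below all wild-type arrays and the other Tbx5+/- arrays were above them (0.40 ± 0.44, and 0.11 to 0.88 on leaving out 1 array). The upstream probe (chr6:5381034-5381093) read 9.37, 9.12, 7.80 and 8.49 against 10.93, 10.47, 9.98 and 10.58. Every Tbx5+/- value was lower there (-1.79 ± 0.35, limma, adjusted p = 0.0917), and it passed with the block (adjusted p = 0.0334). Of the other genes in the cluster, Sgce, for sarcoglycan epsilon, differed by 0.40, Ppp1r9a by -0.16, the homeobox gene Dlx5 by -0.24 and the calcitonin receptor gene Calcr by -0.01. Peg10, derived from a retrotransposon, was above background on 0 of 4 Tbx5+/- and 3 of 4 wild-type arrays and was not tested.

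Gnas makes the stimulatory G protein alpha subunit and, from upstream promoters, imprinted transcripts of either parent. Its brightest probe read 13.39, 12.66, 12.25 and 12.04 in Tbx5+/- and 14.10, 12.40, 12.50 and 12.48 in wild-type. Number 1 was highest in both groups, and the difference was -0.28 ± 0.43 (-0.39 for a probe beside it). An upstream probe (chr2:174158317-174158376, plus strand) read 6.06, 6.04, 5.72 and 6.25 in Tbx5+/-, not well above background on any of these arrays, and 7.15, 7.73, 7.61 and 8.31 in wild-type. Against the lowest signal counted as above background on each array, it was at least 2.71-fold lower in Tbx5+/- (limma, adjusted p = 0.0917). It entered the test through wild-type alone, so this p supports no difference. A further 5 Gnas probes were not tested.

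Slc38a4, an amino acid transporter gene of the paternal allele, read 11.81, 12.30, 12.83 and 12.63 in Tbx5+/- and 12.40, 11.88, 12.16 and 11.84 in wild-type (0.32 ± 0.25). Its upstream probe read 8.67, 8.43, 7.32 and 8.37 against 9.81, 8.63, 8.68 and 8.91 (-0.81 ± 0.35). Tbx5+/- 1 was lowest of all arrays on the first probe and overlapped wild-type on the second. Impact differed by -0.26 and Nnat, a proteolipid gene of neural and endocrine cells, by -0.34. Nap1l5, a nucleosome assembly protein gene, was above background on 3 of 4 arrays of each group, and the exchange factor gene Rasgrf1 and the cation transporter gene Slc22a2 on at most 1 array of a group for any probe. Slc22a3, another cation transporter gene, was above background on none. With Ascl2 and Peg10, these 4 make up the 6 members not tested.

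The disagreements between probes had a direction along the genes. Of the 16 members with more than 1 tested probe, 13 had tested probes of 1 strand far enough apart to be compared along it. Phlda2 and Copg2 were left out because their tested probes lay close together. In 12 of these 13 (92.3%) the most upstream probe had the lower difference, with Ppp1r9a the exception. The 12 include Gnas, whose upstream probe entered through wild-type alone, so that its lower difference was favoured by the filter. They also include small gaps, of -0.02 in Ddc, -0.14 in H19 and -0.15 in Sgce. Over 4409 gene names the share was 68.6%. The median of upstream minus downstream difference was -0.44 in the 13 and -0.22 over all names. In Asb4, Usp29, Peg3 and Slc38a4 it exceeded 1 in size. It did so in Gnas too, where the upstream level in Tbx5+/- was not above background and its size is not exact. Probes of a gene can read different transcripts. The wider median gap on Tbx5+/- 5, 6 and 7 given above runs the same way, and its part in these differences was not tested.

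**Figure D5:**
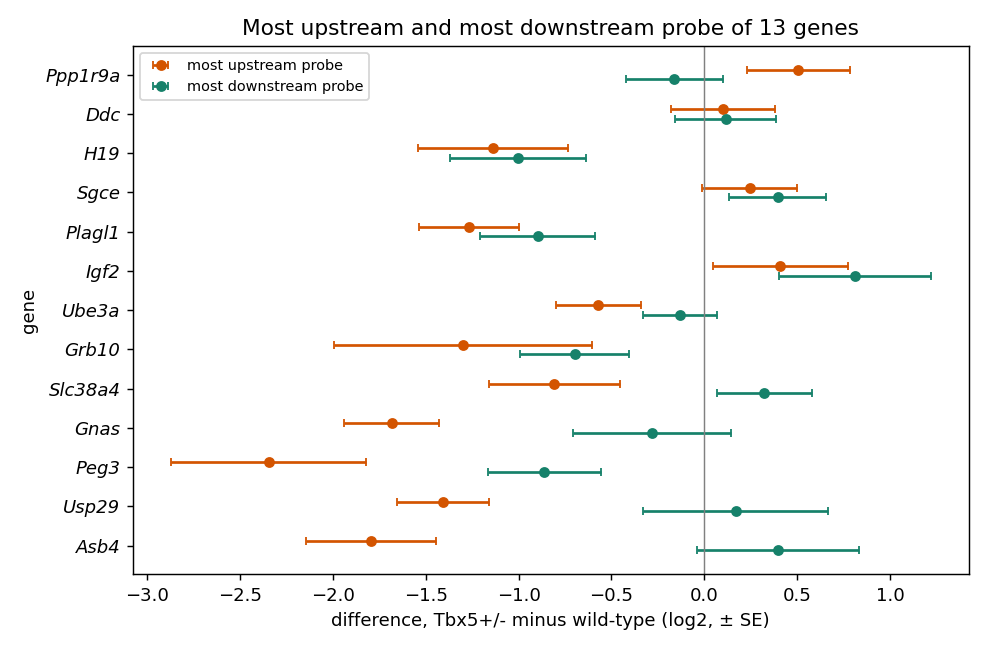
Difference between Tbx5+/- and wild-type (log2, x axis, bars ± SE from limma over 4 against 4 arrays) for the most upstream (orange) and most downstream (green) tested probe of 13 genes. The orange point lies left of the green one in 12 genes, at -1.79 against 0.40 in Asb4, and right of it in Ppp1r9a. The orange Gnas probe was not above background on any Tbx5+/- array.

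Within number 1 nearly all members were lower in Tbx5+/-, and the members parted in numbers 5, 6 and 7. In 13 of 32 genes Tbx5+/- was lower within all 4 numbers (36.3% of probes): H19, Cdkn1c, Kcnq1, Kcnq1ot1, Slc22a18, Peg3, Zim1, Grb10, Plagl1, Ndn, Magel2, Ube3a and Impact. Zim1, above background on 2 of 4 Tbx5+/- arrays, entered the test through wild-type alone. In 10 genes Tbx5+/- was lower within number 1 and higher within the other 3 (22.1% of probes): Igf2, Igf2r, Usp29, Mest, Copg2, Sgce, Asb4, Slc38a4, Calcr and Ddc. None was higher within all 4 (3.8% of probes). Within number 1, 29 of 32 genes were lower in Tbx5+/- (83.3% of probes), and within numbers 5, 6 and 7 they were 18, 19 and 20 (56.5%, 60.5% and 59.6%).

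Calls depended on how number 1 was treated. With the pool numbers as a block, 3 of 32 members were called, all lower (Cdkn1c, Peg3 and Ndn), near the 10.8% of probes called lower in that fit. Over probes well above background on all 8 arrays, 8 of 30 members had at least 1 probe called, all lower, which added H19, Usp29, Plagl1, Ube3a and Asb4. The share of gene names so counted was 10.9%, and genes with more probes have more chances of a call. Without Tbx5+/- 1, 9 members were called. H19, Cdkn1c, Peg3 and Ube3a were lower and Igf2, Usp29, Mest, Sgce and Asb4 higher, against 12.2% of probes lower and 7.01% higher. Without wild-type 1, none of the 32 brightest probes was called (1.06% of probes lower, 0% higher), and the count at an unadjusted p under 0.05 went from 7 to 4. SAM called 6, all lower: H19, Cdkn1c, Peg3, Plagl1, Ndn and Ube3a (14.6% of probes lower, 2.23% higher). Weighting each array by its spread gave 9 lower and 7 higher (33.5% and 16.5%), and leaving out both arrays of number 1 under the block, chosen after seeing the data, gave 6 lower and 7 higher (25.6% and 11.8%).

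Other imprinted genes and the proteins that keep imprints were read on the same arrays. Of 23 tested genes of a second list of imprinted genes, 3 were lower and 2 higher at an unadjusted p under 0.05 (median -0.16). The lower ones were led by the Polycomb-related gene Sfmbt2 (-0.68) and the noncoding RNA Airn (-0.91), which silences Igf2r on the paternal allele, and the higher ones were Mcts2 (0.59) and the sterol reductase gene Dhcr7 (0.78). Airn read 5.57 and 5.76 in Tbx5+/- 5 and 7, where a Slc22a18 probe at 6.51 and 6.58 was not above background. Airn may thus have entered the test through wild-type alone. Of 20 tested genes for setting and keeping imprints, 4 were lower and none higher (median -0.22). Leading the lower ones were the demethylating enzyme gene Tet2 (-1.13) and the histone chaperone gene Hira (-1.21). In Tbx5+/- 6, Tet2 lay below that Slc22a18 probe, which read 6.49 there and was not above background. Hira read 6.42 in Tbx5+/- 7, where the same probe at 6.58 was not above background. Tet2 and Hira may thus also have been tested only through wild-type, and the size of their differences is not exact. Among the 20 genes, the smallest p of those above 0 belonged to Dnmt3l (0.40), a partner of the DNA methyltransferases, and Eed (0.26), a Polycomb subunit. None of these genes passed an adjusted p of 0.05 with limma, and these shares lie near those of all probes.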

How the data were processed

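RNA of 8 pools of pSHF was hybridized to 1-colour Agilent whole mouse genome arrays, 1 array a pool. Per the file headers, the deposited scanner files hold linear intensity values and quality marks from Agilent Feature Extraction 10.5.1.1, another deposited measure beside each signal. The authors also deposited background-corrected log2 values after variance stabilization (VSN) between arrays. These served only as an alternative. Here each mean signal was reduced by its median local background, 1115 outlier spots were left out, repeat spots of 245 probes were averaged, and VSN was programmed in R 4.3.3 (90% of probes kept in 7 iterations), with r of at least 0.9999 to the deposited values. No spot was saturated. Each array had 43379 spots, and the number of arrays limits the precision. Positions come from the scanner files (mm9), which do not name exons or UTRs. RefSeq windows are on GRCm38.p6 and were not joined to them.

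Probes were compared with limma 3.58.1 (two-sided, no covariate), with p adjusted by Benjamini-Hochberg over 20028 probes and a threshold of 0.05. The study's methods name SAM, which was programmed as an alternative. Tests were checked on simulated data. Single values used exact permutation over 70 assignments, which does not use the pool numbers. The change of H19 minus that of Igf2 was also tested by exact sign flips of the same-number pairs. Arrays of the same number deviated together, weakly in number 7 (correlations 0.44, 0.40, 0.59 and 0.14 for numbers 1, 5, 6 and 7). Tbx5+/- 7 had its highest correlation with wild-type 6. The labels do not say what a shared number stands for, so the block takes these pairs as an assumption.

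Every member is named. Values on every array are given for members with an unadjusted p under 0.05 or no overlap, for growth regulators (H19, Igf2, Igf2r, Cdkn1c, Grb10), for members whose probes disagree by over 1, and for members that turn by over 0.5 when 1 array is left out. Mest was added after its values were seen. Of other lists, those of the 2 smallest p either way are named. The members and lists were chosen with earlier results of these data known.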

Additional observations from a re-analysis of the deposited data

Results flagged for a closer look

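Of 64 groups of 4 arrays (32 genes, 2 genotypes), 9 had 1 array far from the other 3, its gap to the nearest taking up more of the group's range than Dixon's critical value for 4 samples allows. Chance flags about 1 in 20 groups. All 9 were arrays of number 1. Wild-type 1 was high for Phlda2 (12.001), Slc22a18 (8.60), Gnas (14.1) and Snrpn (10.7) and low for Calcr (9.15). Tbx5+/- 1 was high for Dlx5 (9.62) and low for Usp29 (6.88), Ppp1r9a (12.3) and Calcr (8.41). Calcr was thus low on number 1 in both groups.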

How the results depend on the processing

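The count of members called was 0 with limma, with the array label as a block and under each scaling, filter and deposited-value alternative. It was 3 with the replicate block, which changed no other call of a brightest probe, 6 by SAM, 16 with array weights and 0 to 9 on leaving out 1 array. Without both arrays of number 1, an alternative chosen after seeing the data, it was 5, and 13 with the replicate block too. At an unadjusted p under 0.05 the counts were 11, 16, 4 to 15, 14 and 17 with the block, with weights, leaving out 1 array, and without number 1 without and with the block. The median difference went from -0.26 to 0.0599 under 75th percentile scaling, where all probes had 0.10, and to -0.0924 after normexp and quantile normalization (all probes -0.02); on leaving out 1 array it ran from -0.28 to -0.13. The change of H19 minus that of Igf2 ran from -2.39 to -1.16.

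Signs turned for small differences. Percentile scaling gave Phlda2 0.29, Cd81 0.33, Gnas 0.0650, Magel2 0.0549, Mkrn3 0.0389, Ppp1r9a 0.20, Impact 0.12, Nnat 0.0327 and Calcr 0.37. Quantile normalization gave Phlda2 0.17, Magel2 0.0117 and Calcr 0.31. Array weights gave Phlda2 0.12, Cd81 0.12, Peg12 -0.19 and Calcr 0.18. Without both arrays of number 1, with or without the block, Phlda2 was 0.50, Cd81 0.0801 and Calcr 0.23. Leaving out 1 array gave ranges of -0.50 to 0.90 for Phlda2, -0.16 to 0.35 for Calcr, -0.11 to 0.0357 for Cd81, -0.55 to 0.13 for Gnas, -0.0858 to 0.76 for Usp29, -1.03 to 0.0861 for Dlx5, -0.0488 to 0.29 for Ddc, -0.87 to 0.0831 for Kcnq1ot1 and -0.30 to 0.0559 for Ppp1r9a. The cause was not tested.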
